A study of Mus musculus with 4 samples.

Results

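The genes described here encode the fibroblast growth factor (FGF) receptors Fgfr1, Fgfr2, Fgfr3 and Fgfr4, the receptor-like protein Fgfrl1, the ligands Fgf1 and Fgf2, and the FGF carrier Fgfbp1. These 8 genes were chosen by name, with earlier results of these data known. Each was found once among the 34721 entries of the expression table. FGF receptors are cell surface tyrosine kinases that bind an FGF ligand together with heparan sulfate and signal through adaptor proteins to the ERK pathway. Splicing of the ligand-binding part of the receptors differs between epithelial and mesenchymal cells and sets which ligands a cell can sense. In squamous epithelium, Fgfr2 and Fgfr3 are known for their part in keratinocyte growth and differentiation, and the human FGFR1 gene is amplified in a subset of head and neck cancers.

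The 4 lines were isolated from oral squamous cell carcinomas of male C57BL/6 mice that had the carcinogen DMBA painted on the buccal mucosa. AOC3 and AOC3-LN came from the primary tumor and a lymph node metastasis of mouse 3 after 28 weeks of carcinogen, and AOC11 and AOC11-LN came from the same sites of mouse 11 after 31 weeks. The study used mice of 6 to 8 weeks of age. The cells were cultured in serum, passed under the skin of a C57BL/6 mouse, depleted of fibroblasts with an isolation kit and cultured in serum again. RNA of each line was sequenced as 1 library, and gene levels are given as FPKM, a fragment abundance scaled by transcript length and sequencing depth. The exome list of the study gives a protein-changing single-base variant of Fgfr1 in both AOC3 lines and of Fgfr2 in both AOC11 lines. These variants were not analysed here, and an FPKM value sums all alleles of a gene.

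Differences are given as log2 differences of FPKM plus 1 after quantile normalization, a scale that understates differences of genes at low levels. For the difference between the mice, the mean over AOC11 and AOC11-LN was subtracted from the mean over AOC3 and AOC3-LN. Within a mouse, the primary line was subtracted from the lymph node line. A difference past 2-fold is above 1 or below -1 on this scale. The lines of a group share 1 mouse, so a limma p-value describes these lines and not mice, and the comparisons within a mouse have 1 library a side and no replicate check. An exact permutation test of 2 lines against 2 cannot give a two-sided p below 0.333.

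The table gives no read counts, and the spacing of its low values gave estimated depths of 33300000 fragments (AOC3), 28000000 (AOC3-LN), 33500000 (AOC11) and 32300000 (AOC11-LN). Epithelial identity of the lines was checked with 10 markers, all of which reached 1 FPKM in at least 1 line. Their summed level was 3731, 3777, 3266 and 3478 FPKM in AOC3, AOC3-LN, AOC11 and AOC11-LN, the order of lines used for all values below. The most abundant was Krt18, a keratin of simple epithelium, at 1307, 1322, 957 and 1115 FPKM, followed by its partner Krt8 at 815, 1078, 949 and 986 FPKM. The basal keratin Krt5 stood at 499, 275, 4.99 and 17 FPKM (log2 difference 5.19, limma adjusted p = 0.0685) and the basal transcription factor Trp63 at 1.69, 2.1, 0.0848 and 0.841 FPKM (log2 difference 1.12, limma adjusted p = 0.202). Trp63 met the minimum of 1 FPKM through the AOC3 lines alone, and without AOC3-LN its difference was 0.97 and without AOC11 it was 0.82. Krt14, the partner of Krt5, went the other way, at 166, 150, 257 and 259 FPKM (log2 difference -0.69, limma adjusted p = 0.146). The lines thus carried epithelial markers, though Trp63 was under 1 FPKM in both AOC11 lines. The basal markers did not share a direction.

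Fibroblasts also express Fgfr1, so markers of other cells were read beside the receptors. The summed level of 11 fibroblast markers was 0.35, 0.331, 7.09 and 11.7 FPKM. In the AOC11 lines most of it was Acta2, smooth muscle actin, at 0.0445, 0.00156, 5.79 and 6.97 FPKM, and the matrix protein gene Postn stood at 0.0593, 0.00696, 0.757 and 3.54 FPKM. The defining collagen gene Col1a1 reached at most 0.407 FPKM, Pdgfra at most 0.383 FPKM, Dcn at most 0.0578 FPKM and Lum at most 0.0141 FPKM over the 4 libraries. Among 10 mesenchymal markers, the summed level was 743, 557, 489 and 353 FPKM, with the highest means for Sparc at 327, 158, 281 and 207 FPKM and Fn1 at 268, 259, 160 and 92.8 FPKM. Vim, the intermediate filament gene of mesenchymal cells, was higher in the AOC3 lines at 122, 118, 35.4 and 27.2 FPKM (log2 difference 1.96), as was Fn1 (1.13, or 0.70 without AOC11-LN). The 5 endothelial markers summed to between 0.262 and 0.401 FPKM, with Pecam1 the most abundant at up to 0.374 FPKM, Cdh5 next at up to 0.0542 FPKM, and none of them at 1 FPKM. Among 8 macrophage and T cell markers, summing to 14, 9.29, 27 and 10.5 FPKM, Adgre1, Cd3e, Cd8a and Cd4 were listed at 0 in all 4 lines. The macrophage receptor gene Csf1r stood at 0.995, 0.435, 20.8 and 6.01 FPKM and the lysosomal gene Cd68 at 13, 8.79, 6.15 and 4.45 FPKM, without Adgre1 beside them. The Acta2 and Csf1r values are higher in the AOC11 lines, as those of Fgfr1 are. Postn, Col1a1, Dcn, Thy1 and Fap were also higher in both AOC11 lines than in both AOC3 lines. Of these, only Postn in AOC11-LN was above 1 FPKM. The other fibroblast markers, Col1a2, Col3a1, Pdgfra, Pdgfrb and Lum, overlapped between the mice. The part of these marker genes in the receptor differences was not tested. In bulk RNA, fewer cells of a type and less RNA per cell cannot be told apart.

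Of the 8 genes, 5 entered the counts with a level of 1 FPKM or more in any line (Fgfr1, Fgfr3, Fgfrl1, Fgf2 and Fgfbp1). Fgfr3 passed through the AOC11 lines and Fgf2 through AOC3-LN alone, so a count over the 5 genes does not stand for all 8. Between the AOC3 and AOC11 lines, 1 of the 5 was past 2-fold, Fgfr1, which was lower in the AOC3 lines. Over all 14165 entries that met the same minimum, 11.1% were past 2-fold, and a count of 1 of 5 is no result about the genes as a group. limma called none of the 5 genes at an adjusted p under 0.05, against 0.205% of all entries, and 2 of the 5 (Fgfr1 and Fgfr3) had an unadjusted p under 0.05, against 18.7% of all entries. From AOC3 to AOC3-LN, 1 of the 5 was past 2-fold, again Fgfr1, against 5.53% of all entries. From AOC11 to AOC11-LN, 0 of the 5 were past 2-fold, against 8.11% of all entries. The FPKM values of the mice did not overlap for 4 of the 5 genes, and for 53.0% of all entries. Fgfr3 and Fgf2 are among the 4 and met the minimum only through the mouse where they are higher. This count is therefore no result about the genes as a group.

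**Figure D1:**
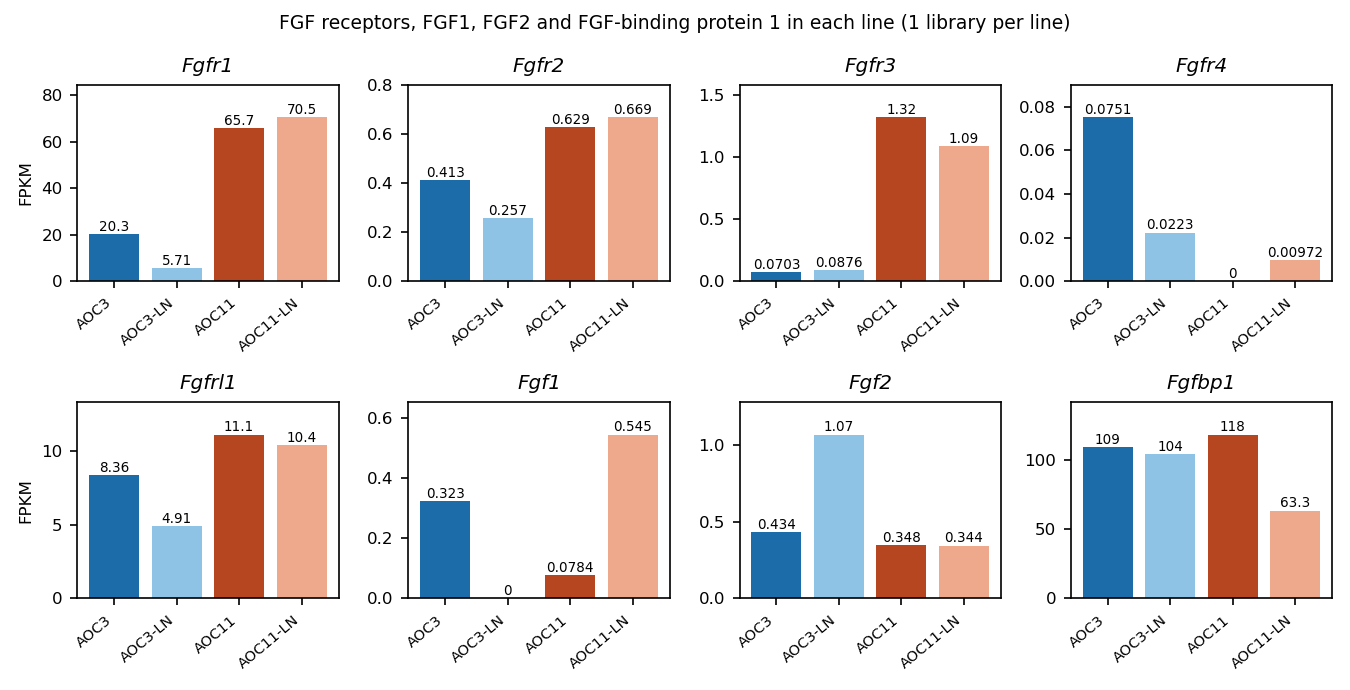
FPKM of each of the 8 genes (vertical axes, each from 0 on its own scale) in AOC3, AOC3-LN, AOC11 and AOC11-LN, with 1 library per bar and the value above it. Fgfr1 ran from 5.71 to 70.5 FPKM and Fgfbp1 from 63.3 to 118 FPKM, while Fgfr2, Fgfr4 and Fgf1 stayed under 1 FPKM in every line.

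Fgfr1 (ENSMUSG00000031565.18) lies on the plus strand of chromosome 8 from 25513654 to 25575718 in mm10 and was the main FGF receptor transcript of all 4 lines. Its level was 20.3 FPKM in AOC3, 5.71 FPKM in AOC3-LN, 65.7 FPKM in AOC11 and 70.5 FPKM in AOC11-LN. Both AOC11 lines were higher than both AOC3 lines, the lines of mouse 11 were close to each other, and the lines of mouse 3 were not. The mean over the AOC11 lines was 5.24-fold the mean over the AOC3 lines, and the log2 difference was -2.46 (limma SE 0.53, adjusted p = 0.133, lower in 2 of 2 AOC3 lines). Over the alternative settings of the limma fit that adjusted p ranged from 0.0611 to 0.419, so the difference did not pass limma's threshold in any of them. The size depended on AOC3-LN, since without that line the log2 difference was -1.65, and without AOC3 it was -3.28. Between the primary lines the log2 difference was -1.61 and between the lymph node lines it was -3.31, a pair of comparisons chosen after seeing the data.

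Within mouse 3, Fgfr1 stood 3.55-fold higher in the primary line than in the lymph node line (log2 difference -1.59). Within mouse 11 the log2 difference was 0.11. The low value of AOC3-LN therefore sets both the mouse 3 difference and part of the difference between mice. Whether the lymph node differences of the mice differ from each other was not tested, since each rests on 1 library a side. The quantity behind these levels is large, as the longest coding transcript of Fgfr1, 5041 bases, would at 5.71 FPKM have held about 806 fragments in AOC3-LN. The antisense gene Gm16159 shares 164 exon bases with Fgfr1 and had at most 0.196 FPKM.

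The position of Fgfr1 was used to ask whether its neighbours showed the same levels. Letm2, which begins 2772 bases after the end of Fgfr1 and encodes a mitochondrial inner membrane protein, went the other way, with 4.6, 2.76, 0.936 and 1.96 FPKM (log2 difference 1.002, or 0.78 without AOC3, 0.81 without AOC11, 0.94 without quantile normalization and 0.99 with scaling by the median). Nsd3, a histone methyltransferase gene that is often amplified together with human FGFR1, stood at 15, 13.2, 11.3 and 9.02 FPKM (log2 difference 0.51). Plpp5, a lipid phosphatase gene, stood at 11.6, 13.8, 12.2 and 16.1 FPKM (log2 difference -0.07). None of these 3 genes after Fgfr1 was lower past 2-fold in the AOC3 lines. Before Fgfr1, Tacc1, a gene of the centrosome and spindle, had 0.258, 0.359, 0.669 and 1.53 FPKM (log2 difference -0.61, or -1.40 with a pseudocount of 0.1). Plekha2, which encodes a phosphoinositide-binding adaptor and ends 411278 bases before Fgfr1, stood at 25.2, 12.4, 36.4 and 59 FPKM. Its log2 difference between mice was -1.26 (-0.80 without AOC3-LN and -0.93 without AOC11-LN), in the direction of Fgfr1. The protease gene Htra4, next to Plekha2, reached at most 0.0152 FPKM. Of the 6 neighbours, all but Htra4 met the minimum of 1 FPKM. Plekha2 was past 2-fold in the direction of Fgfr1 and Letm2 in the other, against 11.1% of all entries in either direction. So few calls are no result about the neighbours as a group. Both calls, like the side of Tacc1, depended on the setting or on single lines. DNA copy number was not analysed here.

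**Figure D2:**
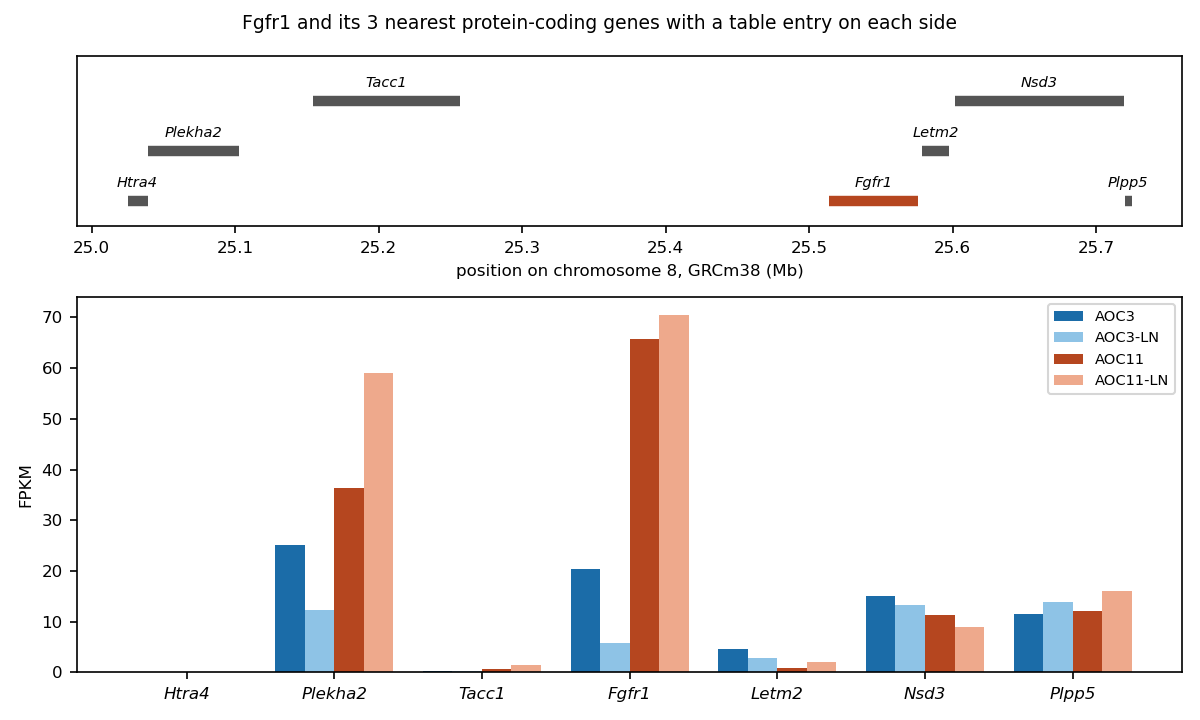
Upper panel, positions of Fgfr1 and of the 3 nearest protein-coding genes with a table entry on each side along chromosome 8 (Mb, GRCm38). Lower panel, FPKM of each gene in the 4 lines (1 library per bar), where Fgfr1 and Plekha2 are higher in the AOC11 lines and Letm2 and Nsd3 are lower in them.

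Fgfr2 (ENSMUSG00000030849.18, minus strand of chromosome 7) encodes the receptor whose epithelial splice form binds the FGFs that mesenchyme secretes. Its level was 0.413 FPKM in AOC3, 0.257 FPKM in AOC3-LN, 0.629 FPKM in AOC11 and 0.669 FPKM in AOC11-LN. All 4 values were under 1 FPKM, and both AOC11 lines were above both AOC3 lines. The log2 difference between the mice was -0.30, or -0.76 with a pseudocount of 0.1. As Fgfr2 did not reach 1 FPKM, it was not tested. The value itself is uncertain. The annotated gene runs from 130162451 to 133123350 because 1 transcript has 2 exons that lie 2856878 and 2815494 bases beyond the others. Their 210 and 104 bases are wholly within exons of Ctbp2 on the same strand. Ctbp2, a transcriptional corepressor gene, stood at 40.6, 43.2, 32.7 and 38.4 FPKM, and how reads in the shared exons were divided is not given in the sources used here. Fgfr2 was thus at a low level in all 4 lines, and the part of Ctbp2 reads in it was not tested.

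Of the 6 nearest neighbours of Fgfr2, taken without those far exons, 5 met the minimum of 1 FPKM. Ate1, an arginyltransferase gene, stood at 6.49, 6.1, 9.86 and 8.46 FPKM (log2 difference -0.41), and Nsmce4a, a gene of a DNA repair complex, at 39.7, 33.7, 41.4 and 57.6 FPKM (-0.37). Tacc2, a paralog of Tacc1, stood at 29.4, 39.4, 31.8 and 34.6 FPKM (0.10). On the other side, Wdr11, whose product works in vesicle transport, stood at 12.2, 11.1, 11.9 and 13.6 FPKM (-0.04). Sec23ip, a gene of the early secretory pathway, stood at 17.8, 19.6, 15.7 and 17.5 FPKM (0.23), and the lipid phosphatase gene Plpp4 reached at most 0.0324 FPKM. None of the 5 neighbours that met the minimum was past 2-fold between the mice, against 11.1% of all entries.

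Fgfr3 (ENSMUSG00000054252.18, plus strand of chromosome 5 from 33721674 to 33737068) restrains growth in cartilage and is also expressed in squamous and bladder epithelium. Its level was 0.0703 FPKM in AOC3, 0.0876 FPKM in AOC3-LN, 1.32 FPKM in AOC11 and 1.09 FPKM in AOC11-LN. The AOC11 lines were both near 1 FPKM and the AOC3 lines were near 0, with no overlap. The mean over the AOC11 lines was 15.3-fold that over the AOC3 lines. The log2 difference was -0.997 (limma SE 0.30, adjusted p = 0.203, lower in 2 of 2 AOC3 lines), which lay just inside the 2-fold threshold. That side of the threshold depended on the setting. With a pseudocount of 0.1 in place of 1 the log2 difference was -2.76, without quantile normalization it was -1.03, and with scaling by the median it was -1.01. Without AOC3-LN it was -1.04 and without AOC11-LN it was -1.16. The adjusted p of limma ranged from 0.157 to 0.662 over its alternative settings. Over the longest coding transcript of 4245 bases, the levels come to about 10, 10, 188 and 150 fragments. Fgfr3-ps, annotated as a pseudogene of Fgfr3 with which it may share reads, stood at 3.17, 2.73, 2.76 and 1.92 FPKM without the gap between the mice.

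Fgfr4 (ENSMUSG00000005320.9, plus strand of chromosome 13 from 55152640 to 55168759), a receptor of bile acid control in liver, had 0.0751 FPKM in AOC3, 0.0223 FPKM in AOC3-LN, 0 in AOC11 and 0.00972 FPKM in AOC11-LN. Over its coding transcript of 3324 bases these values come to about 8, 2, 0 and 1 fragments. Fgfr4 transcript was therefore close to the detection limit in these libraries, and no difference could be read from it.

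Fgfrl1 (ENSMUSG00000008090.14, plus strand of chromosome 5 from 108692382 to 108706924) has the FGF-binding part of a receptor but lacks the kinase, and is known as a decoy. Its level was 8.36 FPKM in AOC3, 4.91 FPKM in AOC3-LN, 11.1 FPKM in AOC11 and 10.4 FPKM in AOC11-LN, the second highest of the receptor genes in every line. The order of the lines was that of Fgfr1 apart from the AOC11 pair, with AOC3-LN the lowest, over a narrower range. The log2 difference between the mice was -0.59 (limma SE 0.27, adjusted p = 0.322, lower in 2 of 2 AOC3 lines), or -0.31 without AOC3-LN and -0.86 without AOC3. It was -0.54 from AOC3 to AOC3-LN and -0.08 from AOC11 to AOC11-LN. None of these was past 2-fold. By FPKM, Fgfr2, Fgfr3 and Fgfr4 stood below both Fgfr1 and Fgfrl1 in every line.

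Fgf1 (ENSMUSG00000036585.16, minus strand of chromosome 18 from 38838673 to 38929472), a ligand that binds all FGF receptors, had 0.323 FPKM in AOC3, 0 in AOC3-LN, 0.0784 FPKM in AOC11 and 0.545 FPKM in AOC11-LN. The mice overlapped, and the lymph node lines were the lowest and the highest of the 4. Fgf1 did not reach 1 FPKM, and its log2 difference between the mice was -0.13. Within mouse 3 the log2 difference was -0.39 and within mouse 11 it was 0.38, both inside 2-fold, while a pseudocount of 0.1 gave -2.02 and 1.44.

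Fgf2 (ENSMUSG00000037225.13, plus strand of chromosome 3 from 37348346 to 37410108), the basic FGF that is stored on heparan sulfate of the matrix, had 0.434 FPKM in AOC3, 1.07 FPKM in AOC3-LN, 0.348 FPKM in AOC11 and 0.344 FPKM in AOC11-LN. AOC3-LN was the highest line and the other lines lay close together. The log2 difference between the mice was 0.39 (limma SE 0.35, adjusted p = 0.568), and between the primary lines it was -0.02. From AOC3 to AOC3-LN the log2 difference was 0.66, or 1.38 with a pseudocount of 0.1. Fgf2 shares 640 exon bases with Nudt6 on the opposite strand, a gene that stood at 13.5, 9.52, 5.5 and 5.17 FPKM, and the study names default parameters for the counting and no strand setting. The part of Nudt6 reads in the Fgf2 values was not tested.

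Fgfbp1 (ENSMUSG00000048373.8, minus strand of chromosome 5 from 43978858 to 43981779) encodes a secreted carrier that releases FGF1 and FGF2 from the matrix and is known from squamous epithelium and its carcinomas. It was the most abundant of the 8 genes in AOC3, AOC3-LN and AOC11, with 109 FPKM in AOC3, 104 FPKM in AOC3-LN, 118 FPKM in AOC11 and 63.3 FPKM in AOC11-LN. Its mean of 98.5 FPKM was higher than that of 92.4% of the 14165 entries. In AOC11-LN, Fgfr1 at 70.5 FPKM stood above it. AOC11-LN was the low line and the other lines lay within 104 to 118 FPKM, so the mice overlapped. The log2 difference between the mice was 0.33 (limma SE 0.33, adjusted p = 0.616), and it was 0.80 without AOC11 and -0.13 without AOC11-LN. From AOC11 to AOC11-LN the log2 difference was -0.92, inside 2-fold, and from AOC3 to AOC3-LN it was -0.11. Fgf1 and Fgf2 were near or under 1 FPKM in the same lines.

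Promoters are shown for Fgfbp1, Fgfrl1 and Fgfr3, whose means were 98.5, 8.69 and 0.644 FPKM. Of the 8 genes, 6 had entries in the RefSeq promoter table (GRCm38.p6), and Fgfr1 and Fgf1 were not among them. Each window runs from 250 bases before to 50 bases after an annotated start, and capitals mark the motifs TATAAA and GGGCGG on either strand. The third motif searched was TGANTCA.
Fgfbp1, chr5:43981750-43982049, minus strand: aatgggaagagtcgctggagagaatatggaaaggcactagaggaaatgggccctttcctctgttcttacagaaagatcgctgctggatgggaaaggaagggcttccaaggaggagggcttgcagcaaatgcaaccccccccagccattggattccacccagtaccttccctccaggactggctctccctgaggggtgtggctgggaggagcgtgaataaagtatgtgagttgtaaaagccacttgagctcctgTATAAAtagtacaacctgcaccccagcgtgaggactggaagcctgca
Fgfrl1, chr5:108693979-108694278, plus strand: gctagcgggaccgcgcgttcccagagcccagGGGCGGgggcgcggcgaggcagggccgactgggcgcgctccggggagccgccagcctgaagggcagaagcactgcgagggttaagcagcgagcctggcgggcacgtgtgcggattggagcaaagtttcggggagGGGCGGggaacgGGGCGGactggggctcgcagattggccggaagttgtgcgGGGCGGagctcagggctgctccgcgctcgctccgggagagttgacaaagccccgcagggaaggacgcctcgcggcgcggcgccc
Fgfr3, downstream of its 2 starts, chr5:33722056-33722355, plus strand: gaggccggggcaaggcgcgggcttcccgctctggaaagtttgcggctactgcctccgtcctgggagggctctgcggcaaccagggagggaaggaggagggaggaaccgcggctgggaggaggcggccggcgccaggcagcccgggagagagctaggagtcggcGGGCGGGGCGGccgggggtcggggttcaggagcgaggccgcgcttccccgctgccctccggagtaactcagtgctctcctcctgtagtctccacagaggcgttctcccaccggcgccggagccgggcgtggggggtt
The Fgfbp1 window held TATAAA once, from base 254 of the 300, and no GGGCGG, with 4 CpG and 53.3% G and C. The Fgfrl1 window held 4 copies of GGGCGG and 37 CpG, and the Fgfr3 window held 2 overlapping copies and 30 CpG. Among 32851 promoters of the same length, 13.6% held TATAAA, 35.7% held GGGCGG and 7.81% held TGANTCA, and the median was 7 CpG. TGANTCA was in none of the 3 windows. The window of Fgfr2, which is not shown, held 4 CpG as that of Fgfbp1 did, at a mean of 0.492 FPKM. A match describes the letters of a window and not a bound site.

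Genes whose levels ran most like those of Fgfr1 over the 4 lines were taken by the smallest Euclidean distance between normalized log2 values, each gene centred on its own mean, among 11379 other protein-coding genes. The nearest was Ass1, which encodes argininosuccinate synthase of arginine synthesis, at a distance of 0.25 against a median of 2.72. Ass1 stood at 9.95, 2.97, 35.5 and 33.4 FPKM. Samd5 followed with 1.62, 0.202, 8.01 and 8.51 FPKM (distance 0.40), and Pon3, a lactonase of the paraoxonase family, with 4.53, 0.548, 20.6 and 15.5 FPKM (0.40). Rhoc, a small GTPase of cell migration, was abundant at 148, 34.5, 330 and 462 FPKM (0.42), and the spindle protein gene Psrc1 stood at 2.31, 0.567, 11.9 and 12.9 FPKM (0.43). All 5 were chosen for this likeness, so AOC3-LN being their lowest line and AOC3 the next is no separate result. The genes nearest to Fgfbp1 were Ucn2, a peptide hormone gene (distance 0.05 against a median of 0.88), Aff4, a scaffold of the super elongation complex (0.08), and the zinc finger gene Zfp318 (0.09). Their levels were 1.79, 1.34, 1.77 and 0.711 FPKM for Ucn2, 29.1, 28.8, 33.3 and 16.5 FPKM for Aff4, and 6.63, 5.92, 6.68 and 3.66 FPKM for Zfp318. Each was lowest in AOC11-LN, as Fgfbp1 was, which follows from the choice and is no separate result. The genes nearest to Fgfr2 were Tmem254c (4.64, 3.83, 6.1 and 5.52 FPKM), its near copy Tmem254b (4.51, 3.73, 5.93 and 5.25 FPKM) and the lysosomal thioesterase gene Ppt2 (7.25, 6.39, 9.69 and 8.32 FPKM). These distances of 0.02 to 0.03 describe small differences, as Fgfr2 itself varied little on this scale.

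Of 16 further ligand genes, 14 had an entry, 2 reached 1 FPKM in at least 1 line, and 3 were listed at 0 in all lines (Fgf3, Fgf4 and Fgf23). Fgf5, known for ending the growth phase of hair follicles, had 3.75, 4.5, 5.72 and 1.22 FPKM and was the highest ligand gene in AOC3, AOC3-LN and AOC11. Its log2 difference between the mice was 0.54 (1.37 without AOC11 and -0.36 without AOC11-LN), and from AOC11 to AOC11-LN it was -1.76. That was 1 call among the 2 ligand genes, against 8.11% of all entries. Neither gene was past 2-fold between the mice or in mouse 3, against 11.1% and 5.53% of all entries. Fgf21, a metabolic hormone gene, had 0.527, 0.444, 0.771 and 2.26 FPKM (log2 difference between the mice -0.67, or -1.27 with a pseudocount of 0.1). The ligands of the epithelial Fgfr2 splice form, Fgf7 and Fgf10, were at most 0.176 and 0.0166 FPKM. Of the 4 intracellular FGF homologous factors, which are not secreted and bind sodium channels, 2 reached 1 FPKM. Fgf13 had 0.171, 0.198, 2.05 and 0.965 FPKM (log2 difference -0.99, or -2.27 with a pseudocount of 0.1, -1.05 without quantile normalization and -1.02 with scaling by the median, -1.05 without AOC3-LN and -1.40 without AOC11-LN), and Fgf11 had 0.846, 0.431, 0.855 and 1.19 FPKM.

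Of 12 genes for heparan sulfate carriers and coreceptors that present FGFs to their receptors, 8 met the minimum of 1 FPKM, 1 of them was past 2-fold between the mice, against 11.1% of all entries, and the median log2 difference was -0.13, against 0.01 over all entries. Sdc1, the main syndecan of epithelium, stood at 257, 354, 192 and 175 FPKM and Sdc4 at 106, 112, 100 and 141 FPKM. The gene past 2-fold was Hspg2, the basement membrane proteoglycan perlecan that binds FGF2, at 22.7, 11.1, 36.1 and 36.5 FPKM. Its log2 difference was -1.07 (limma adjusted p = 0.207, lower in 2 of 2 AOC3 lines), and -0.61 without AOC3-LN. The endocrine FGF coreceptor genes Klb and Kl were at most 0.101 and 0.0086 FPKM. Within each mouse, 1 of the 8 genes was past 2-fold, against 5.53% of all entries in mouse 3 and 8.11% in mouse 11. The glypican gene Gpc4 was lower in AOC3-LN than in AOC3 (11, 2.98, 12.1 and 10.6 FPKM, log2 difference -1.47). The syndecan gene Sdc3 was higher in AOC11-LN than in AOC11 (3.15, 5.02, 0.997 and 5.12 FPKM, log2 difference 1.39). Between the mice, the Gpc4 difference was -0.74, or -1.49 without AOC3 and -0.01 without AOC3-LN. That of Sdc3 was 0.54, or 1.26 without AOC11-LN and -0.15 without AOC11.

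Of 13 genes for heparan sulfate enzymes, 9 met the minimum of 1 FPKM, and 2 were past 2-fold between the mice, 1 in each direction, against 11.1% of all entries (median log2 difference 0.01). Hs6st1, a sulfotransferase that adds sulfate groups that FGF receptors need, had 24.2, 14.3, 58.4 and 36.8 FPKM (log2 difference -1.19, limma adjusted p = 0.184, -0.85 without AOC3-LN and -0.88 without AOC11). Glce, the epimerase of the chain, had 17.2, 16, 10.6 and 6.24 FPKM (log2 difference 1.03, limma adjusted p = 0.186). The Glce difference was 0.68 without AOC11-LN and 0.94 without quantile normalization. The chain polymerases had the highest means of the list, though Hs6st1 was above both in AOC11, with Ext1 at 52.6, 29.1, 35.5 and 34.8 FPKM and Ext2 at 34.4, 34.6, 41.2 and 39.5 FPKM. None of the 9 was past 2-fold between a lymph node line and its primary line, against 5.53% of all entries in mouse 3 and 8.11% in mouse 11.

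Downstream of the receptors, all 13 genes for adaptors and proximal effectors met that minimum, and 1 of them was past 2-fold between the mice, against 11.1% of all entries (median log2 difference 0.00). That gene was Gab1, a docking protein that couples receptors to phosphoinositide kinase signaling, at 1.96, 1.33, 6.46 and 5.54 FPKM (log2 difference -1.34, limma adjusted p = 0.118, lower in 2 of 2 AOC3 lines). The adaptor that receptors share, Grb2, had the highest mean of the list at 58, 60.9, 48.3 and 42.7 FPKM, and Shc1 the next at 44.7, 31.9, 50.1 and 64.7 FPKM, an order that did not hold in every line. The docking protein gene Frs2, which is dedicated to FGF and neurotrophin receptors, stood at 7.5, 6.28, 7.52 and 6.55 FPKM. Frs2 thus lay within a narrow range in lines that differed in Fgfr1.

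Of 13 inhibitors and output genes of the pathway, 12 met the minimum, and 1 was past 2-fold between the mice, against 11.1% of all entries (median log2 difference 0.16). That gene was Flrt2, a membrane protein that binds FGF receptors, at 0.827, 0.129, 4.35 and 2.64 FPKM (log2 difference -1.56, limma adjusted p = 0.163, lower in 2 of 2 AOC3 lines, or -2.81 with a pseudocount of 0.1). It met the minimum through the AOC11 lines alone. The highest means were those of the phosphatase genes that ERK signaling induces, Dusp6 at 83.3, 97.3, 49.2 and 73.7 FPKM and Dusp4 at 80.4, 76.1, 53.1 and 36.4 FPKM. Both were higher in the lines with less Fgfr1, by log2 differences of 0.64 and 0.87 (limma adjusted p = 0.264 and 0.17), which are inside 2-fold. The Dusp4 difference was 1.14 without AOC11 and 0.61 without AOC11-LN, and the Dusp6 difference was 0.35 without AOC11 and 0.92 without AOC11-LN. The transcription factor gene Etv4, an output of the pathway and the highest of the list in AOC11, went the other way at 33.9, 46.6, 58 and 70.2 FPKM (log2 difference -0.63, limma adjusted p = 0.251). Within mouse 3, AOC3-LN had less Fgfr1 than AOC3, with log2 differences of 0.19 for Dusp6, -0.13 for Dusp4 and 0.45 for Etv4. The exome list of the study also gives Hras, Nf1 and Erbb2 variants in both AOC11 lines and in neither AOC3 line. The part of Fgfr1 or of these variants in the output genes was not tested. From AOC3 to AOC3-LN, 2 genes of the list were past 2-fold, against 5.53% of all entries. They were Flrt3 (1.04, 3.95, 3.16 and 4.92 FPKM, log2 difference 1.43) and the inhibitor Spry4 (0.865, 2.37, 1.21 and 0.616 FPKM, log2 difference 1.003). None was past 2-fold from AOC11 to AOC11-LN, against 8.11% of all entries. The Spry4 difference within mouse 3 lay just past the threshold and was not run under the alternatives. Between the mice, the Flrt3 difference was -0.57, or -1.30 without AOC3-LN and 0.15 without AOC3.

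Splicing regulators bear on which receptor form is made. Esrp1, which directs the epithelial splicing of FGF receptors, was level over the lines at 56.8, 53.5, 56.9 and 54.2 FPKM. Its relative Esrp2 stood at 8.42, 8.45, 14.1 and 17 FPKM (log2 difference -0.74). Ptbp1, a general splicing repressor, was the most abundant of the 5 regulators at 316, 381, 356 and 285 FPKM, and Mbnl1 stood at 31.7, 33.2, 39.7 and 31.1 FPKM. None of the 5 was past 2-fold in the 3 comparisons, against 11.1% of all entries between the mice, 5.53% in mouse 3 and 8.11% in mouse 11. The splice forms themselves were not analysed here, since the values are given per gene.

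**Figure D3:**
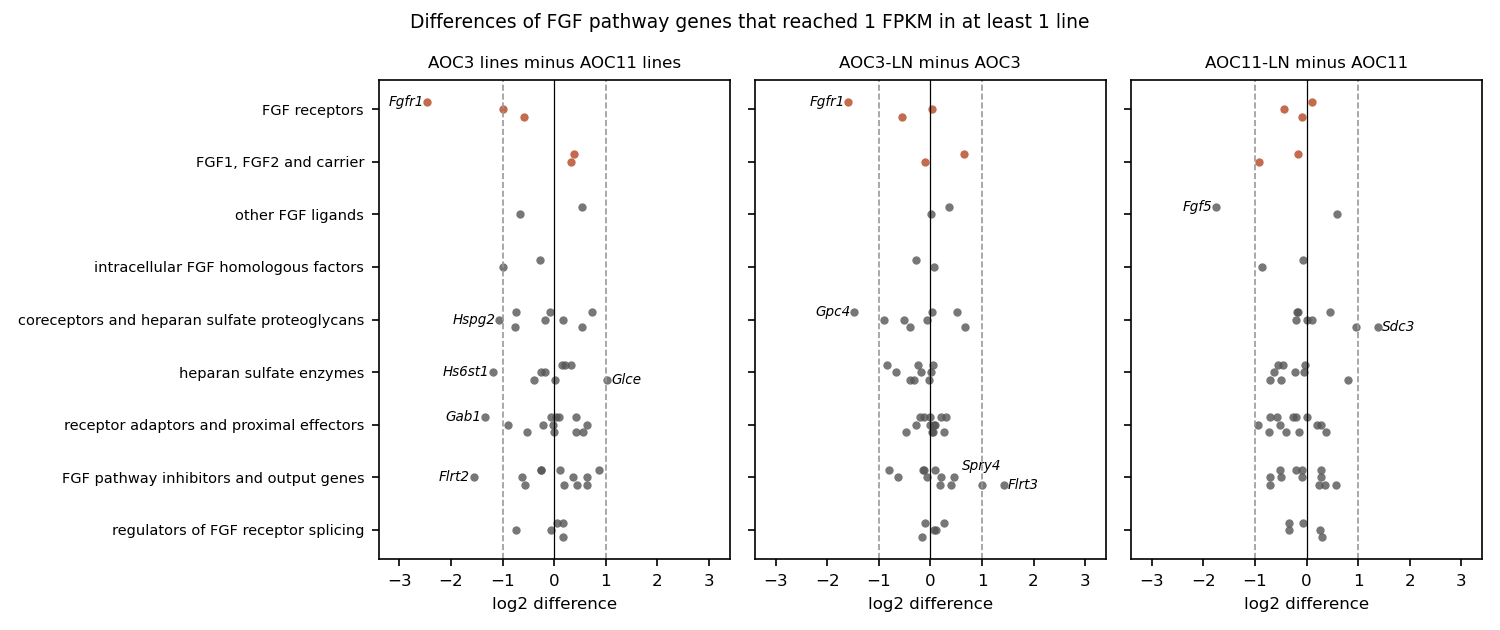
Log2 differences (horizontal axes) of the described genes and 7 pathway lists (rows, without the marker lists), for genes with 1 FPKM or more in any line, for the AOC3 lines minus the AOC11 lines and for each lymph node line minus its primary line, with 1 point per gene, the described genes in red and dashed lines at 2-fold. Among the genes drawn, Fgfr1 at -2.46 lies farthest from 0 in the first panel, and named points are those past 2-fold.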

How the data were processed

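RNA of the 4 lines was sequenced as stranded, paired-end libraries, 1 per line. The authors trimmed reads with Trim Galore, aligned them to the mm10 genome by TopHat2 and ran Cufflinks at default settings, whose FPKM output is the deposited unit used here. Gene symbols and positions came from GENCODE M21. The log2 of FPKM plus 1 was quantile-normalized across the 34721 entries, and the 14165 entries that had 1 FPKM or more in any line were kept. Quantile normalization shifts low values, so Fgfr2 had a log2 difference of -0.22 from AOC11 to AOC11-LN where its FPKM was slightly higher. The AOC3 and AOC11 lines were compared with limma 3.58.1 (R 4.3.3; lmFit and eBayes with trend, Benjamini-Hochberg adjustment over all kept entries). The fit was run on simulated independent lines with the same spread for every gene, which does not test how it performs on these lines. Lines from the same mouse took the place of replicates, and site, which replicate numbers follow, was tried as a block. Depth was estimated from low values of 9528 genes with 1 transcript, of which between 71.2% and 74.6% lay within 0.1 of a whole step, against 20% for even spacing. The depth and a length offset were chosen to make this share the largest, so it is no separate check of the depth. Fragments per gene assume the longest coding transcript. Alternatives covered the pseudocount, normalization, filter, gene type, threshold, limma settings and leaving out each line. The genes and lists were chosen with earlier results of these data known. From each list the genes past 2-fold between the mice (at most 4) and the 2 with the highest mean FPKM are named, with the 3 nearest neighbours on each side of Fgfr1 and Fgfr2 and the genes most like Fgfr1 (5), Fgfbp1 (3) and Fgfr2 (3). Other names were chosen after their values were seen. Fgf8 and Fgf20 were not analysed here.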

Additional observations from a re-analysis of the deposited data

How the results depend on the processing

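Fgfr1 stayed past 2-fold and lower in the AOC3 lines under every alternative tried, with log2 differences between -3.31 and -1.61. Among the 5 genes that met the minimum, the number past 2-fold between the mice was 1, and it was 2 with a pseudocount of 0.1, without quantile normalization, with scaling by the median and between the primary lines alone (chosen after seeing the data), Fgfr3 being the added gene. It was 3 at 1.5-fold and between 1 and 2 when a line was left out. Without AOC3-LN and without AOC11-LN it was 2. Over all entries, 1573 were past 2-fold, 2627 with a pseudocount of 0.1 and 3814 at 1.5-fold. From AOC3 to AOC3-LN, 2 of the genes passed with a pseudocount of 0.1 and 2 at 1.5-fold, Fgf2 being the added gene, and from AOC11 to AOC11-LN 1 passed at 1.5-fold, Fgfbp1. Fgf1, outside these counts, also went past 2-fold within both mice with a pseudocount of 0.1. limma called 0 of the genes at an adjusted p under 0.05, 0 under every alternative, between 0 and 0 when a line was left out, and 0 with site as a replicate block. At an unadjusted p under 0.05 it called 2, and between 1 and 2 under the alternatives. Over all entries it called 29, 31 with the replicate block, 0 without a filter, 50 with a filter of 5 FPKM and 259 among protein-coding genes. It called between 0 and 4 when a line was left out (4 without AOC3-LN and 0 without any other), where the lone line of a mouse is assumed to vary like the pair. The cause of these changes was not tested, except that a filter alters the number of genes tested and a left-out line the number of libraries. Of 155 single differences of the 8 genes under the alternatives, 146 kept their side of 2-fold and 9 went past it. For 57 other genes, which are not all of those named, 364 of 394 differences between the mice kept their side, 18 came inside 2-fold and 12 went past it. No called difference changed sign. Genes absent from a filtered set gave no value there. The levels of Fgfr4, Fgf1, Fgf2 and Fgfr2 rest on few fragments, as does that of Fgfr3 in the AOC3 lines, at about 10 in each.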
